A study of Homo sapiens with 16 samples.

Results

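Levels of 48 genes of Polycomb repression, heterochromatin and DNA methylation were examined in G401, a kidney rhabdoid tumor cell line that lacks the SWI/SNF subunit SMARCB1. The genes were chosen by symbol out of the 57820 genes in each deposited table, and 47 of the 48 had enough reads to be tested. PCGF5, a Polycomb subunit, was the exception, with 0 to 10 counts per library. BRD9 KO cells, in which BRD9 was deleted by CRISPR-Cas9, were compared with LacZ cells, which carried a control guide against a bacterial gene. Both were sampled on days 1, 2, 3 and 5, with 2 libraries per guide and day and 16 in all. All cells were grown in DMEM with 10% FBS, and all lack SMARCB1. The study's general CRISPR methods give lentiviral delivery, with Cas9 cells kept in blasticidin and guide-carrying cells selected in puromycin. The day from which time was counted is not given in the sources used here. The study names the 2 libraries of a group biological replicates, but nothing says that they came from separate cultures, so p-values measure the spread between these libraries, which may be technical.

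Polycomb proteins keep developmental genes silent. Polycomb repressive complex 2 (PRC2) methylates lysine 27 of histone H3 through EZH1 or EZH2, together with SUZ12 and EED. PRC1 ubiquitylates histone H2A through RING1 or RNF2, paired with one PCGF protein. Canonical PRC1 reads the methylated lysine with CBX proteins, and variant PRC1 carries RYBP in their place. Heterochromatin rests on methylation of lysine 9 of histone H3, which HP1 proteins bind, and DNA methylation is written by DNMT enzymes and removed through oxidation by TET enzymes. SWI/SNF remodelers oppose Polycomb on chromatin, and cells without SMARCB1 are known to depend on EZH2. BRD9 belongs to a SWI/SNF form that contains no SMARCB1. The comparison asks whether loss of BRD9 in such cells moves the RNA of the opposing machinery.

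The smallest BRD9 KO library held 9185808 counted reads and the largest 16560669, and LacZ libraries ranged from 11252814 to 15430060. BRD9 itself was lower in BRD9 KO libraries on all 4 days, with log2 fold changes of -1.51, -1.34, -1.31 and -1.36. SMARCB1 had 0 to 2 counts per library, and the tumor line's markers VIM, KRT8 and KRT18 were each above 1000 TPM (transcripts scaled by length and library total) in every library. Of 8 markers of blood and endothelium, 7 were found in the tables. Their summed level was 0.11 to 0.79 TPM in LacZ and 0.1 to 0.69 TPM in BRD9 KO libraries, with PTPRC, CD3E and HBB at 0 counts throughout. In bulk RNA, fewer cells that express a gene and less RNA per cell cannot be told apart.

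The 48 genes covered a wide range of levels in control cells, led by heterochromatin genes. TPM corrects for transcript length and is the scale used here to compare genes. TRIM28, the co-repressor that KRAB zinc finger proteins recruit, led at 598 ± 62.5 TPM (mean ± SD over 8 LacZ libraries). The HP1 gene CBX3 followed at 329 ± 27.6 TPM and BMI1, the PCGF subunit of canonical PRC1, at 254 ± 42.5 TPM, and these SDs do not overlap. Each SD pools the days, so it holds changes between days as well as between replicates, and overlap of SDs is not a test. HDAC1 and HDAC2, histone deacetylases, had 166 ± 5.85 TPM and 141 ± 14.02 TPM. CBX1 (124 ± 9.696 TPM) and DNMT1 (124 ± 14.4 TPM) differed by less than their spread. In all, 7 genes exceeded 100 TPM, 32 lay between 10 and 100 and 9 lay under 10, with a median of 27.5 TPM. The lowest group held the TET genes, the de novo methyltransferases DNMT3A (5.82 ± 1.27 TPM) and DNMT3B (7.67 ± 0.529 TPM), KDM6B, JARID2, CBX7 and PCGF5 (0.354 ± 0.276 TPM). In the core of PRC2, SUZ12, EZH2 and EED had 35.7 ± 2.70, 33.0 ± 3.76 and 31.9 ± 3.24 TPM (SD, n = 8), and these SDs overlap, while EZH1 had 10.7 ± 1.31 TPM. The ranges of both guides, pooled over the days, overlapped for all 48 genes in the level plot, which does not compare the guides within a day.

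**Figure D1:**
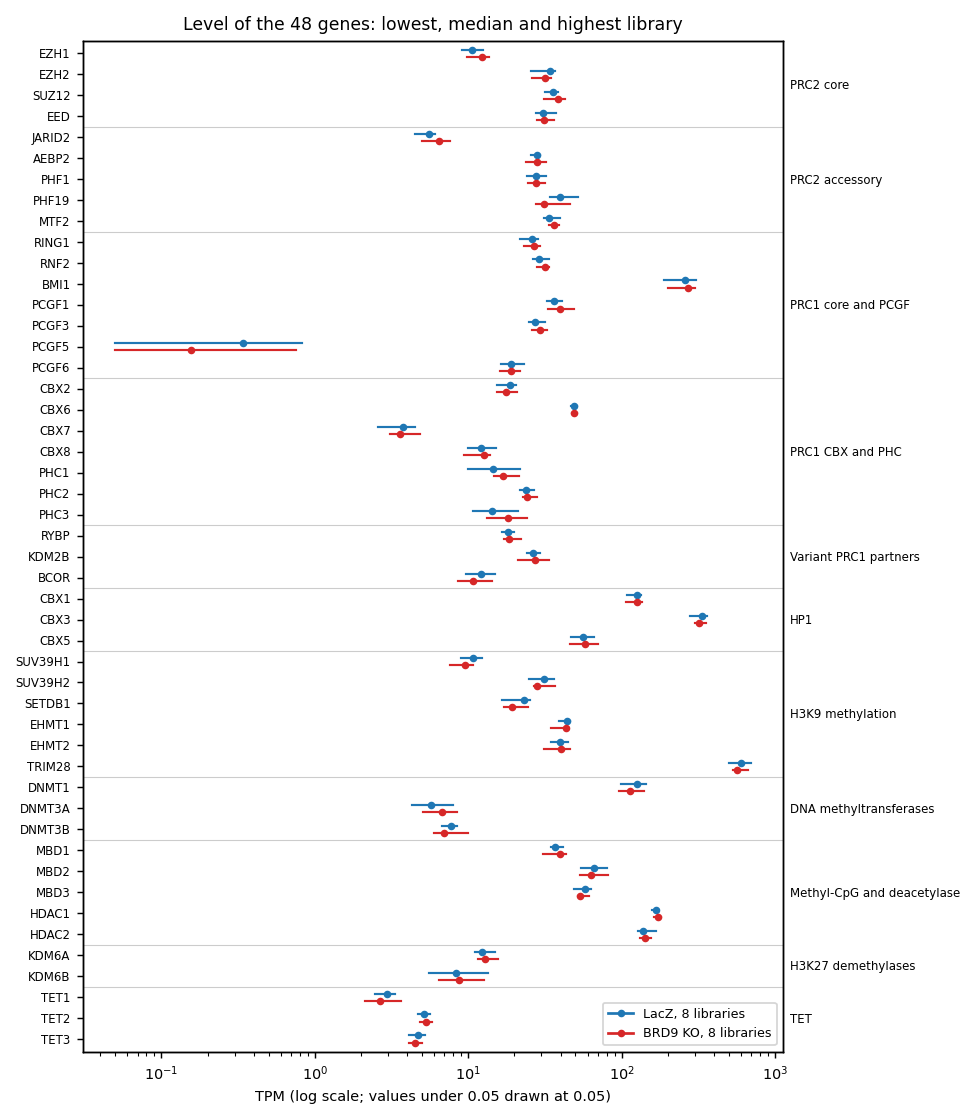
Level in TPM (log scale) of the 48 genes, ordered by role, as the lowest, median and highest of 8 LacZ (blue) and 8 BRD9 KO (red) libraries. TRIM28 and CBX3 lie furthest right, PCGF5 lies furthest left, and the ranges of the guides, pooled over the days, overlap for all genes.

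Differences between the guides were small, and most calls came late. A gene was called when edgeR's quasi-likelihood test gave an adjusted p under 0.05, with Benjamini-Hochberg adjustment across 15027 genes. On day 1, 0 of the 47 genes were called, where 0.539% of all genes tested were, and 8 had an unadjusted p under 0.05. On day 2 the count was again 0, beside 2.70% of all genes and with 8 at an unadjusted p under 0.05. DESeq2 also called 0 genes on either day, although it gave no adjusted p to 37 of the 48 on day 1 and 11 on day 2. On day 3, 1 gene was higher and 7 were lower, beside 4.59% higher and 5.85% lower among all genes. On day 5, 3 were higher and 1 was lower, beside 7.53% and 7.45%. The 7 lower genes of day 3 make up 14.9% of the list, above the background share, and the 3 higher genes of day 5 make up 6.38%, near it. The background was not matched to the list for level, and DESeq2 called only DNMT1 on day 3.

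Averaging days improved the precision. Over days 1 and 2 (early), 2 of 47 genes were lower, where 1.83% of all genes were. Over days 3 and 5 (late), 2 were higher and 8 were lower, beside 10.6% and 10.9% of all genes. The 10 late calls make up 21.3% of the list, close to the 21.5% of all genes called in either direction. The median late log2 fold change was -0.02 over the 47 genes, beside a value within 0.001 of 0 over all genes, and 30 of the 47 values were negative. Late changes were small: PHF19 at -0.34 and JARID2 at 0.25 were the extremes. Of the 10 late calls, limma-trend on log2 of TPM plus 1 kept only those of PHF19 and HDAC1. DESeq2 did not make those of JARID2 and TET1. On each of the 4 days the BRD9 KO libraries lay on the same side of both LacZ libraries for JARID2, PHF19, SUV39H1 and TRIM28, 4 of 47 genes (8.51%), while 5.12% of all genes did so.

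The day 3 count depended on single libraries. Without BRD9 KO replicate 1 of that day 0 genes were called, without LacZ replicate 1 only 1 was, and without LacZ replicate 2 there were 3. The late count stayed between 9 and 12 when any library was left out.

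**Figure D2:**
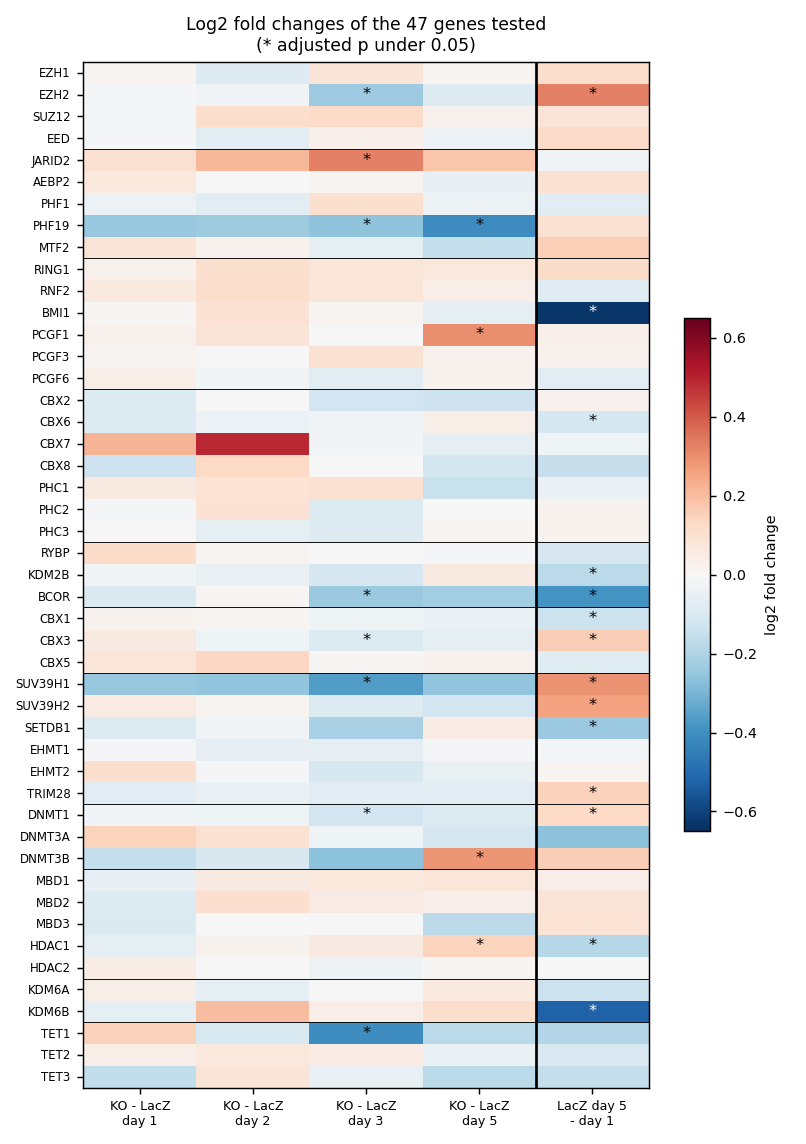
Log2 fold changes of the 47 genes tested, ordered by role, for BRD9 KO minus LacZ on each day and for LacZ day 5 minus LacZ day 1, with a star where the adjusted p was under 0.05. Stars are missing on days 1 and 2, gather on day 3, and are most frequent in the control column, where 14 genes were called.

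Start sites of the late-lower genes were searched for letters that E2F factors bind, since E2F drives many genes of DNA replication. The searched words were TTTCCCGC, TTTGGCGC, TTTGCCGC and TTTCGCGC on both strands, from 250 bases before to 50 after each start in RefSeq (GRCh38.p14), and no stretch of 8 bases can match more than 1 word. RefSeq promoters were matched for 45 of the 48 genes and for 7 of the 8 that were lower late. A word was found in 4 of these 7 (CBX3, EZH2, PHF19 and DNMT1) and in 4 of the other 38 genes (AEBP2, EZH1, MTF2 and SUZ12). Among all RefSeq genes, expressed here or not, 1090 of 27305 had one (3.31% of their 35116 promoters). These 4 stretches are shown because they belong to genes called lower late. The E2F word is in capitals and is read on the complementary strand in PHF19 and DNMT1. The lines give CBX3 (chr7:26201428-26201457, plus strand), EZH2 (chr7:148884272-148884301, minus strand), PHF19 (chr9:120877273-120877400, minus strand) and DNMT1 (chr19:10194937-10194966, minus strand), each 5′ to 3′ along the gene.
CBX3: cggagtccggtTTTGGCGCcagccgctgag
EZH2: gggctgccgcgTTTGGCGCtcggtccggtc
PHF19: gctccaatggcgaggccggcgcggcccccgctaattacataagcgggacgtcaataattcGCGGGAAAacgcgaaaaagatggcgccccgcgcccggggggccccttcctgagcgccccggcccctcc
DNMT1: catcggtttccGCGCGAAAagccggggcgc
The word lay across the start in CBX3 (-4 to 4) and DNMT1 (-2 to 6), just inside the transcript in EZH2 (2 to 9), and further upstream in PHF19 (-152 to -145), in bases from the start site. The CHR words TTTGAA and TTCGAA, which mark many G2/M genes, were found in 7 of the 45 genes. Among all RefSeq genes 5336 of 27305 had one (16.4% of all promoters). None of the 7 was called late, although PCGF5 among them was not tested. The 7 late-lower genes were picked by their calls in these same data, and the split of 4 of 7 and 4 of 38 was not tested. A match is a description of letters and was not tested as a binding site.

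Within the PRC2 core, EZH2 was the only gene of 4 called after BRD9 loss. EZH2, the main H3K27 methyltransferase of dividing cells (ENSG00000106462.6, chromosome 7, 148504349 to 148581413, minus strand on GRCh37), had 54.3 and 53.7 CPM in LacZ and 45.5 and 46.04 CPM in BRD9 KO libraries on day 3, where CPM is the count scaled by the library's TMM-adjusted total. On day 5 it had 48.4 and 54.4 CPM in LacZ and 47.7 and 48.7 CPM in BRD9 KO libraries. The guides were separated on day 3 and overlapped on day 5, as they did on days 1 and 2. Its log2 fold change was -0.24 (standard error 0.0539, adjusted p = 0.00697) on day 3 by edgeR's quasi-likelihood test and -0.08 on day 5, and the late mean was -0.16 (standard error 0.0383, adjusted p = 0.00475). The day 3 call was lost without BRD9 KO or LacZ replicate 1 (log2 fold change -0.23), and DESeq2 did not make it. The late call was kept without any one library but lost with limma on TPM and against a fold of 1.1. SUZ12, the most abundant core subunit, had 99.2 and 103 CPM in LacZ and 111 and 109 CPM in BRD9 KO libraries on day 3 and 92.8 and 89.8 CPM in LacZ and 89.4 and 95.9 CPM in BRD9 KO libraries on day 5. Both BRD9 KO libraries exceeded both LacZ libraries on day 3 but not on day 5, and the late log2 fold change of 0.07 was not called (adjusted p = 0.0899). EED, which binds the methylated lysine, and EZH1, the methyltransferase of resting cells, had late values of -0.0026 and 0.05, both uncalled.

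The accessory subunits held the largest late changes of the 47 tested genes in each direction. PHF19, a Polycomb-like protein that guides PRC2 to chromatin (ENSG00000119403.9, chromosome 9, 123617929 to 123657174, minus strand), had LacZ levels of 49.4 and 42.8 CPM on day 1, 61.8 and 53.6 on day 2, 46.7 and 46.8 on day 3 and 47.3 and 51.1 on day 5. In BRD9 KO libraries it had 38.5 and 38.8, 49.4 and 48.9, 37.7 and 40.6 and 37.6 and 36.6 CPM on the same days. The guides did not overlap on any day, and both replicates of BRD9 KO were lower each time. Its log2 fold changes were -0.25 and -0.23 on days 1 and 2, uncalled singly, -0.26 (standard error 0.0732, adjusted p = 0.0257) on day 3 and -0.41 (standard error 0.0740, adjusted p = 0.000684) on day 5, all from edgeR's quasi-likelihood test. The late value was -0.34 (standard error 0.0520, adjusted p = 9.60e-05), and its late minus early difference of -0.10 was not called (adjusted p = 0.547). The day 5 and late calls held under all alternatives run. The day 3 call was lost without BRD9 KO replicate 1 or either LacZ replicate (adjusted p = 0.114 to 0.259), and DESeq2 did not make it. The early value was -0.24 (standard error 0.0507, adjusted p = 0.0105), and that call was lost without BRD9 KO replicate 2 of day 1 or LacZ replicate 1 of either day (adjusted p = 0.0520 to 0.0666).

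JARID2, a PRC2 partner that helps recruit it to target genes (ENSG00000008083.9, chromosome 6, 15246300 to 15522273, plus strand), was the higher one. It had 18.3 and 19.5 CPM in LacZ and 20.8 and 19.95 CPM in BRD9 KO libraries on day 1 and 14.6 and 16.3 CPM in LacZ and 18.7 and 16.9 CPM in BRD9 KO libraries on day 2. On day 3 it had 19.3 and 19.5 CPM in LacZ and 25.2 and 23.1 CPM in BRD9 KO libraries, and on day 5 17.3 and 20.2 CPM in LacZ and 21.7 and 20.8 CPM in BRD9 KO libraries. The BRD9 KO libraries were above both LacZ libraries each day, by a narrow margin on days 1, 2 and 5. The log2 fold changes were 0.10, 0.21, 0.33 (standard error 0.0843, adjusted p = 0.0169) and 0.18, with only day 3 called by edgeR's quasi-likelihood test, and the late value was 0.25 (standard error 0.0609, adjusted p = 0.00503). The day 3 call was lost without BRD9 KO replicate 1 or either LacZ replicate (adjusted p = 0.0872 to 0.211), and DESeq2 called neither day 3 nor the late value. Of the other accessory genes, MTF2 had -0.11 late (adjusted p = 0.0954), AEBP2 had -0.02 and PHF1 had 0.04, all uncalled.

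Of the 6 genes of the PRC1 catalytic core tested, PCGF1 alone was called after BRD9 loss, on day 5. PCGF1, the subunit that defines the BCOR-containing variant complex (ENSG00000115289.8, chromosome 2, 74732170 to 74734822, minus strand), had 17.7 and 17.3 CPM in LacZ and 17.4 and 17.6 CPM in BRD9 KO libraries on day 3. On day 5 it had 19.3 and 19.5 CPM in LacZ and 22.7 and 24.8 CPM in BRD9 KO libraries. The guides overlapped on day 3 and were clearly separated on day 5, where the log2 fold change was 0.30 (standard error 0.0714, adjusted p = 0.00664) by edgeR's quasi-likelihood test. That call was lost without BRD9 KO replicate 2 or LacZ replicate 1 of day 5 (adjusted p = 0.0670 to 0.216), and DESeq2 did not make it. BMI1, the most abundant gene of the group, had 394 and 404 CPM in LacZ and 399 and 408 CPM in BRD9 KO libraries on day 3 and 287 and 293 CPM in LacZ and 271 and 284 CPM in BRD9 KO libraries on day 5, with a late log2 fold change of -0.02 (adjusted p = 0.461). RING1 and RNF2, the E3 ligases, had late values of 0.07 and 0.06, PCGF3 had 0.06 and PCGF6 -0.02, none of them called.

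None of the 7 CBX and PHC genes of canonical PRC1 was called in any comparison of the guides. CBX6, the most abundant of these readers and polymerizing subunits, had 169 and 178 CPM in LacZ and 172 and 169 CPM in BRD9 KO libraries on day 3 and 165 and 163 CPM in LacZ and 175 and 163 CPM in BRD9 KO libraries on day 5, and the guides overlapped on both days. Late log2 fold changes ran from -0.13 for CBX2 (adjusted p = 0.0785) to 0.01 for CBX6. CBX7, the scarcest, had the largest day 2 value of the whole list, 0.49 (standard error 0.178, adjusted p = 0.197), from 5.501 and 4.26 CPM in LacZ and 6.19 and 7.72 CPM in BRD9 KO libraries. Both of its BRD9 KO libraries were higher on that day, yet the value did not pass edgeR's test.

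Among the partners of variant PRC1, BCOR was lower late. BCOR, the co-repressor that binds PCGF1 (ENSG00000183337.12, chromosome X, 39909068 to 40036582, minus strand), had 34.7 and 37.1 CPM in LacZ and 29.4 and 31.7 CPM in BRD9 KO libraries on day 3 and 26.5 and 25.7 CPM in LacZ and 21.7 and 22.9 CPM in BRD9 KO libraries on day 5. The guides did not overlap on either day. The log2 fold change was -0.24 (standard error 0.0706, adjusted p = 0.0358) on day 3, -0.22 on day 5, uncalled, and -0.23 (standard error 0.0536, adjusted p = 0.00380) late by edgeR's quasi-likelihood test. Without BRD9 KO replicate 1 or either LacZ replicate the day 3 call was lost (log2 fold changes -0.29 to -0.18), and DESeq2 did not make it. The late call was kept without any one library but lost with limma on TPM and against a fold of 1.1. KDM2B, which brings variant PRC1 to unmethylated CpG islands, had 52.1 and 53.2 CPM in LacZ and 49.1 and 48.6 CPM in BRD9 KO libraries on day 3 and 56.6 and 52.4 CPM in LacZ and 56.5 and 57.2 CPM in BRD9 KO libraries on day 5, with a late value of -0.02. RYBP was at -0.0026. Neither was called.

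CBX3 was lower late by a small margin among the HP1 genes. CBX3, which encodes HP1 gamma (ENSG00000122565.14, chromosome 7, 26240782 to 26253227, plus strand), had 291 and 312 CPM in LacZ and 315 and 315 CPM in BRD9 KO libraries on day 1 and 365 and 364 CPM in LacZ and 355 and 359.8 CPM in BRD9 KO libraries on day 2. On day 3 it had 338 and 335 CPM in LacZ and 318 and 315 CPM in BRD9 KO libraries, and on day 5 335 and 339 CPM in LacZ and 321 and 324 CPM in BRD9 KO libraries. The BRD9 KO libraries were above both LacZ libraries on day 1 and below them on the other 3 days. The log2 fold change was -0.09 (standard error 0.0267, adjusted p = 0.0397) on day 3 and -0.08 (standard error 0.0189, adjusted p = 0.00606) late by edgeR's quasi-likelihood test. The day 3 call was lost without any one of the 4 libraries of that day (log2 fold changes -0.095 to -0.083). DESeq2, limma on TPM and a test against a fold of 1.1 did not make it. The late call was kept without any one library but lost with limma on TPM and against that fold. CBX3 was the only one of the 47 genes whose effect differed between the periods, where 4.03% of all genes had a lower late than early effect. Its late minus early difference was -0.09 (standard error 0.0268, adjusted p = 0.0423), and it was lost when any one of 15 of the 16 libraries was left out (adjusted p = 0.0599 to 0.0919), LacZ day 1 replicate 2 being the exception. CBX3 shares 368 exon bases with HNRNPA2B1 on the opposite strand, whose late log2 fold change was -0.05, and the library kit kept no strand. CBX1 and CBX5, the other HP1 genes, had late values of -0.03 and 0.02, both uncalled.

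Of the writers of H3K9 methylation and their partners, SUV39H1 and TRIM28 were lower. SUV39H1, an H3K9 methylase of constitutive heterochromatin (ENSG00000101945.12, chromosome X, 48553945 to 48567407, plus strand), had LacZ levels of 15.4 and 15.5 CPM on day 1, 20.2 and 17.7 on day 2, 17.6 and 19.6 on day 3 and 19.5 and 18.3 on day 5. In BRD9 KO libraries it had 13.2 and 12.99, 16.03 and 15.8, 13.9 and 15.1 and 16.3 and 15.5 CPM. The guides were separated on every day. The log2 fold changes were -0.24, -0.25, -0.37 (standard error 0.0877, adjusted p = 0.0104) and -0.26, with day 3 alone called by edgeR's quasi-likelihood test, -0.25 (standard error 0.0643, adjusted p = 0.0398) early and -0.31 (standard error 0.0617, adjusted p = 0.00106) late. The late call was kept without any one library but lost with limma on TPM. The early one was lost in 7 of 8 fits without one library (log2 fold changes -0.26 to -0.20), LacZ day 2 replicate 2 being the exception. The day 3 call was lost without BRD9 KO replicate 1 or LacZ replicate 2 (log2 fold changes -0.30 to -0.29), and DESeq2 did not make it.

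SUV39H2, its paralog (ENSG00000152455.11, chromosome 10, 14920819 to 14946314, plus strand), had 38.4 and 38.96 CPM in LacZ and 37.04 and 35.4 CPM in BRD9 KO libraries on day 3 and 39.4 and 38.4 CPM in LacZ and 34.2 and 36.8 CPM in BRD9 KO libraries on day 5. Its BRD9 KO libraries were the lower ones on both days, and the late log2 fold change of -0.11 was not called (adjusted p = 0.142). TRIM28 (ENSG00000130726.7, chromosome 19, 59055431 to 59062089, plus strand) had 506 and 522 CPM in LacZ and 489.6 and 492 CPM in BRD9 KO libraries on day 3 and 527 and 554 CPM in LacZ and 519.9 and 507 CPM in BRD9 KO libraries on day 5. The shift was small and on the same side on all 4 days, between -0.07 and -0.05 on the log2 scale, with -0.07 (standard error 0.0180, adjusted p = 0.00737) late by edgeR's quasi-likelihood test. Without LacZ replicate 2 of day 5 that call was lost (log2 fold change -0.05), as it was with limma on TPM and against a fold of 1.1. SETDB1, the methyltransferase that TRIM28 recruits, had 35.8 and 32.7 CPM in LacZ and 28.8 and 30.7 CPM in BRD9 KO libraries on day 3 and 32.2 and 29.6 CPM in LacZ and 32.1 and 32.1 CPM in BRD9 KO libraries on day 5. Both BRD9 KO libraries were below both LacZ libraries on day 3 but not on day 5, and its day 3 log2 fold change of -0.21 was not called (adjusted p = 0.0733). EHMT1 and EHMT2, the dimethyltransferase pair of euchromatin, had late values of -0.04 and -0.08, both uncalled.

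Of the DNA methyltransferases, DNMT1 was lower late and DNMT3B was higher on day 5. DNMT1, which copies methylation after replication (ENSG00000130816.10, chromosome 19, 10244018 to 10341962, minus strand), had 246 and 243 CPM in LacZ and 224 and 224 CPM in BRD9 KO libraries on day 3 and 249.8 and 242 CPM in LacZ and 234 and 229 CPM in BRD9 KO libraries on day 5. The guides were separated on both days, with log2 fold changes of -0.12 (standard error 0.0297, adjusted p = 0.0101) on day 3, -0.09 on day 5, uncalled, and -0.11 (standard error 0.0210, adjusted p = 0.00101) late by edgeR's quasi-likelihood test. The late call was kept without any one library but lost with limma on TPM and against a fold of 1.1. The day 3 call was lost in these ways too. It was also lost without either BRD9 KO replicate or LacZ replicate 1 (log2 fold changes -0.125 to -0.117). DNMT3A, a de novo enzyme, was at -0.07 late, uncalled.

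DNMT3B, the other de novo enzyme (ENSG00000088305.14, chromosome 20, 31350191 to 31397165, plus strand), had 19.5 and 19.01 CPM in LacZ and 15.1 and 17.3 CPM in BRD9 KO libraries on day 3. On day 5 it had 19.3 and 18.2 CPM in LacZ and 23.3 and 22.6 CPM in BRD9 KO libraries. BRD9 KO libraries were the lower ones on days 1, 2 and 3 and the higher ones on day 5. The log2 fold change was -0.27 on day 3 (adjusted p = 0.0541) and 0.29 (standard error 0.0806, adjusted p = 0.0200) on day 5 by edgeR's quasi-likelihood test. A comparison of the day 5 with the day 3 effect, added after these values were seen, gave 0.55 (standard error 0.117, adjusted p = 0.0245). DNMT3B was the only one of the 47 genes called in it, where 0.459% of all genes were higher. DESeq2 did not make the day 5 call, and it was lost without any one of the 4 libraries of that day (log2 fold changes 0.25 to 0.34). The change from day 3 was lost in 7 of 8 such fits (adjusted p = 0.0597 to 0.187), BRD9 KO day 3 replicate 2 being the exception.

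HDAC1 was higher late among the methyl-CpG and deacetylase genes. HDAC1, a catalytic subunit of NuRD and other co-repressor complexes (ENSG00000116478.7, chromosome 1, 32757684 to 32799236, plus strand), had 187 and 184 CPM in LacZ and 189 and 197 CPM in BRD9 KO libraries on day 3 and 176 and 175 CPM in LacZ and 191 and 197 CPM in BRD9 KO libraries on day 5. BRD9 KO libraries were above both LacZ libraries on both days. The log2 fold change was 0.15 (standard error 0.0364, adjusted p = 0.00973) on day 5 and 0.10 (standard error 0.0256, adjusted p = 0.00769) late by edgeR's quasi-likelihood test. The day 5 call was lost without BRD9 KO replicate 2 or either LacZ replicate of that day (adjusted p = 0.0588 to 0.111), while the late call was kept. HDAC2, its paralog, had -0.01, and the methyl-CpG binding genes MBD1, MBD2 and MBD3 had 0.07, 0.04 and -0.09, none called.

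Among genes that erase marks, TET1 was lower late and the H3K27 demethylases were not called after BRD9 loss. TET1, a 5-methylcytosine dioxygenase (ENSG00000138336.8, chromosome 10, 70320094 to 70454244, plus strand), had 17.4 and 13.8 CPM in LacZ and 11.7 and 11.9 CPM in BRD9 KO libraries on day 3 and 15.8 and 15.9 CPM in LacZ and 14.8 and 13.4 CPM in BRD9 KO libraries on day 5. Both BRD9 KO libraries were lower on both days, although the LacZ libraries of day 3 lay far apart. The log2 fold change was -0.40 (standard error 0.1100, adjusted p = 0.0239) on day 3 and -0.29 (standard error 0.0768, adjusted p = 0.0104) late by edgeR's quasi-likelihood test. Day 3 was lost without either BRD9 KO replicate or LacZ replicate 1 (adjusted p = 0.0782 to 0.382) and late without LacZ day 3 replicate 1 or BRD9 KO day 5 replicate 2 (adjusted p = 0.0605 to 0.0833), and DESeq2 called neither. Without LacZ day 3 replicate 1 the day 3 value shrank to -0.23. TET2, the most abundant TET gene, had 29.6 and 27.3 CPM in LacZ and 29.3 and 29.97 CPM in BRD9 KO libraries on day 3 and 31.03 and 28.3 CPM in LacZ and 30.1 and 28.1 CPM in BRD9 KO libraries on day 5, with a late value of 0.01. TET3 was at -0.11, and neither was called. KDM6A, an H3K27 demethylase, had 29.4 and 29.1 CPM in LacZ and 28.7 and 29.8 CPM in BRD9 KO libraries on day 3 and 25.97 and 26.6 CPM in LacZ and 28.1 and 27.1 CPM in BRD9 KO libraries on day 5, and its late value of 0.03 and that of KDM6B, its inducible relative, of 0.08 were uncalled.

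**Figure D3:**
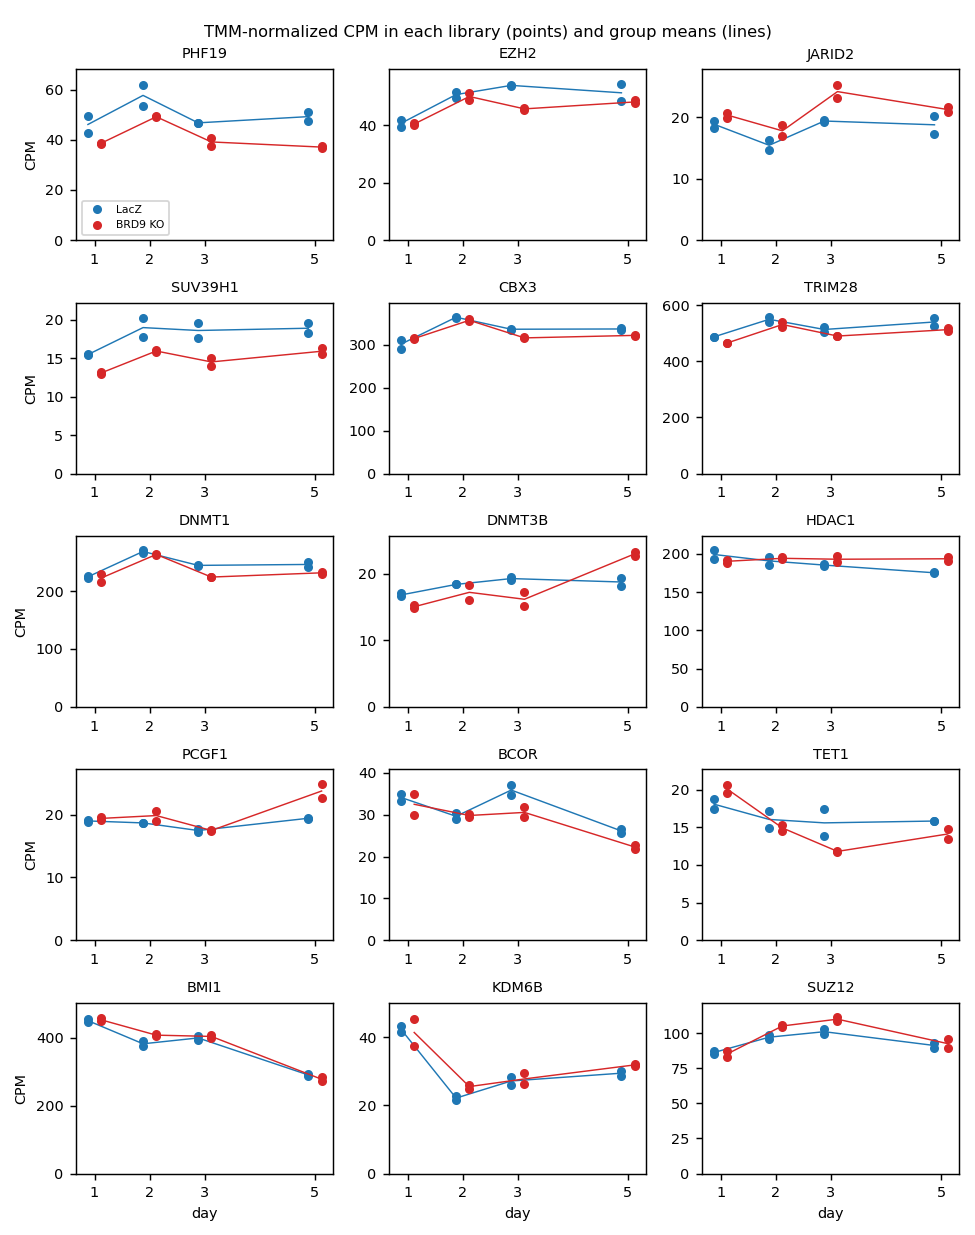
TMM-scaled CPM of 15 of the genes in every library by day, with points for libraries and lines for group means (LacZ blue, BRD9 KO red). PHF19 and SUV39H1 are lower in BRD9 KO on every day, JARID2 is higher, DNMT3B crosses between days 3 and 5, and BMI1 is lower on day 5 than on day 1 under both guides.

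Levels also differed between days in LacZ cells, without BRD9 loss. Time in culture, time since infection and selection, and the day of harvest cannot be told apart in this comparison. Between day 1 and day 5 of LacZ cells, 6 of the 47 genes rose and 8 fell, beside 12.7% and 12.9% of all genes. VWF, an endothelial gene and the only marker of another cell type with enough reads to test, rose in the same comparison. It went from 0.841 and 1.05 to 2.75 and 2.41 CPM, a log2 change of 1.44 (adjusted p = 0.00613 by edgeR's quasi-likelihood test). VWF had only 5 to 37 counts per library, and the endothelial genes CDH5 and TEK had 0 to 1. The part of VWF in the changes over time was not tested. The largest change among the 47 genes was that of BMI1, which went from 446 and 454 CPM on day 1 to 287 and 293 on day 5 in LacZ cells. In BRD9 KO cells it went from 448 and 456 to 271 and 284 CPM. The days were far apart under both guides, and the LacZ log2 change was -0.63 (standard error 0.0266, adjusted p = 9.10e-12) by edgeR's quasi-likelihood test, kept under every alternative run. BMI1 shares 1000 exon bases, 22.8% of its own, with the readthrough transcript COMMD3-BMI1 on the same strand, which changed by -0.68. The level of BMI1 was 254 TPM against 58.6 TPM for that transcript.

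The other changes of the control cells had both directions. KDM6B dropped from 41.6 and 43.2 CPM on day 1 to 22.8 and 21.6 on day 2, and stood at 28.8 and 30.2 on day 5, a log2 change of -0.53 (standard error 0.0778, adjusted p = 5.65e-05). BCOR went from 33.2 and 35.02 to 26.5 and 25.7 CPM (log2 change -0.39, adjusted p = 0.000692 by edgeR's quasi-likelihood test). EZH2 rose from 39.6 and 41.9 to 48.4 and 54.4 CPM (log2 change 0.33, adjusted p = 0.000259), a call kept under every alternative. The days did not overlap in any of these 3 genes. SUV39H1 and SUV39H2 also rose, by 0.29 and 0.26, and CBX3, TRIM28 and DNMT1 by 0.16, 0.15 and 0.13. SETDB1 fell from 35.2 and 37.8 to 32.2 and 29.6 CPM, a log2 change of -0.24. SETDB1 shares 948 exon bases with CERS2 on the opposite strand, and on the TPM scale its change had the other sign (0.14, uncalled). HDAC1, KDM2B, CBX1 and CBX6 fell by 0.18, 0.17, 0.14 and 0.11 on the log2 scale. The calls of SUV39H1, SUV39H2, SETDB1, DNMT1, KDM2B, CBX1 and CBX6 were each lost without at least 1 of the 4 LacZ libraries compared (adjusted p = 0.0546 to 0.279).

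The late comparison and this control comparison share the LacZ libraries of day 5, so their values are only set side by side. EZH2 had -0.16 late and 0.33 over time, SUV39H1 -0.31 and 0.29, DNMT1 -0.11 and 0.13, and BCOR -0.23 and -0.39 on the log2 scale. In BRD9 KO cells, EZH2 went from 41.00 and 40.04 CPM on day 1 to 47.7 and 48.7 on day 5, SUV39H1 from 13.2 and 12.99 to 16.3 and 15.5 and DNMT1 from 229.5 and 215 to 234 and 229. EZH2 and SUV39H1 were thus higher on day 5 than on day 1 in both libraries of BRD9 KO too, and the days overlapped in DNMT1.

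Genes of the cell cycle moved with the same samples. Of 40 S phase genes, 27 were lower late and 0 higher, with a median log2 fold change of -0.14, and the 4 with the smallest p were TYMS (-0.20), MCM7 (-0.18), MCM3 (-0.17) and RRM1 (-0.19), which make nucleotides or load replication origins. Of 40 G2/M genes, 31 were lower and 0 higher, with a median of -0.16, led by TOP2A (-0.22), PRC1 (-0.25, here the spindle midzone gene), TPX2 (-0.23) and KIF20A (-0.27). Early, edgeR called 0 genes of either list, with 8 S phase and 8 G2/M genes at an unadjusted p under 0.05. In LacZ cells between day 1 and day 5, 32 of the S phase genes rose and 0 fell (median 0.32), and 31 of the G2/M genes rose and 1 fell (median 0.27). An E2F word was found in 20 of 34 S phase promoters and 3 of 33 G2/M promoters. The part of the cell cycle in the lower late levels of EZH2, DNMT1, CBX3 and SUV39H1 was not tested.

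Related genes outside the 48 were also counted. Alternatives and left-out libraries are reported only for the 48 genes, so calls outside them carry no such check. Of 32 other Polycomb genes tested, 1 was higher and 5 were lower late, with a median of 0.02. These 6 make up 18.8% of that list, below the 21.5% of all genes called in either direction. L3MBTL3, a reader of methylated histones, had a late log2 value of -0.51 (standard error 0.0645, adjusted p = 1.09e-05) by edgeR's quasi-likelihood test. SCMH1, a PRC1 partner, had -0.37 (standard error 0.0479, adjusted p = 1.34e-05), and both changes were larger in size than any late one among the 47 tested of the 48. PCGF2, the paralog of BMI1, was at -0.18 and RBBP7, a histone-binding subunit of PRC2 and NuRD, at -0.11. C17orf96, which binds PRC2, was higher at 0.16. Of 34 other heterochromatin genes, 2 were higher and 7 lower (median -0.01), 26.5% of the list. The histone chaperone CHAF1A (-0.25), the lamin B receptor LBR (-0.21) and the H3K9 demethylase KDM4A (-0.19) were lower with SETDB2 (-0.19), and KDM4B (0.17), another H3K9 demethylase, and the HUSH subunit FAM208A (0.09) were higher. Of 28 other genes of DNA methylation and NuRD, 4 were higher and 2 lower (median 0.00), 21.4% of the list and near the background. The remodeler CHD3 (-0.19) and the CpG-binding CXXC5 (-0.13) fell, and the NuRD subunit MTA3 (0.16), the scaffolds SIN3A (0.10) and SIN3B (0.10) and the cytidine deaminase APOBEC3B (0.21) rose.

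Textbook targets of Polycomb moved in both directions. Whether Polycomb silences them in G401 was not examined, and only those with enough reads could be tested. Of 33 such genes, 20 were tested, 6 were higher and 3 lower late, where 10.6% and 10.9% of all genes were, and their median was 0.03. The higher ones included BMP4 (0.12), a signalling ligand, the cell cycle inhibitors CDKN1A (0.14) and CDKN2B (0.43), and the transcription factor FOXC1 (0.18). The other 2, HOXA13 (0.72, standard error 0.223) and the growth factor gene IGF2 (1.38, standard error 0.443), were named after their values were seen. HOXA13 was called on day 3 (1.26) but not on day 5 (0.17), and IGF2 was called on neither day alone. HOXA9 (-0.34), HOXC10 (-0.34) and HOXA10 (-0.25), which pattern the body axis, were lower, and HOXA9 and HOXA10 share a readthrough transcript that could take reads of either. Germline genes that DNA methylation keeps silent in somatic cells had almost no reads: 19 of 33 were at 0 counts in all 16 libraries and 0 reached 10 counts in any. Their summed count per library was 4 to 17 in LacZ and 7 to 25 in BRD9 KO libraries, and none could be tested.

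**Figure D4:**
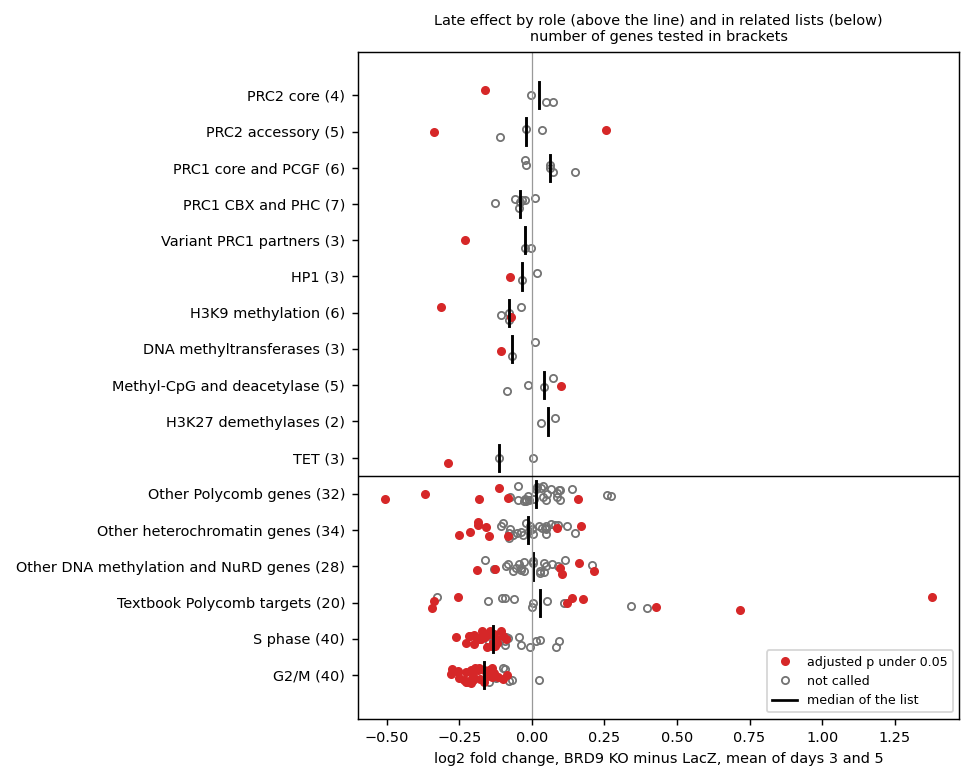
Late log2 fold change (BRD9 KO minus LacZ, mean of days 3 and 5) of each gene tested, by role of the 47 genes (above the line) and in related lists (below), with called genes filled, uncalled genes open and the median as a bar. Roles scatter around 0 with medians of either sign, while the S phase and G2/M lists lie to the left at medians of -0.14 and -0.16. IGF2 stands furthest right at 1.38, with a standard error of 0.443.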

How the data were processed

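The authors extracted total RNA with Trizol, prepared libraries with a NEBNext Ultra kit, which does not keep the strand, aligned reads to hg19 with STAR and quantified genes with RSEM. Versions are not given in the sources used here. The deposited tables hold RSEM's expected counts, used as the measurement, and TPM that the authors' RSEM runs gave, used for levels between genes and as an alternative. They also hold effective lengths and posterior standard deviations, the latter used to gauge reads shared between genes. Of expected counts above 0, 35.7% were not whole, and rounding moved library totals by at most 90.1 reads. Samples were grouped by guide and day from their titles.

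Genes were kept by filterByExpr (minimum count 10, minimum total 15), normalized by TMM, and fitted over all 16 libraries with a mean per group in edgeR 4.0.16 (glmQLFit, glmQLFTest) under R 4.3.3, leaving 8 residual degrees of freedom and a common coefficient of variation of 0.023. P-values were adjusted by Benjamini-Hochberg over the 15027 genes tested. Between replicates the spread was 1.05 to 1.15 times counting noise, so small differences can be called in abundant genes. The chi-square per gene between replicates was 1.39 to 1.76, beyond counting noise in every group. The pipeline was tested on simulated counts. The 48 genes and all lists were chosen with earlier results of these data known. Full values are given for genes called with an absolute log2 fold change of at least 0.2 and for the most abundant gene of each role, and for related lists up to 4 called genes per direction by smallest p. Alternatives were DESeq2's size factors, no filter, 1 CPM in 8 libraries, DESeq2 1.42.0, limma-trend (limma 3.58.1) on log2 of TPM plus 1, a test against a fold of 1.1, removal of a trend with transcript length, replicate number as a block, the libraries of a comparison alone, and each library left out. The comparison of day 5 with day 3 was chosen after seeing the data. Promoters came from RefSeq, and protein sequences were not used here. Coordinates of genes are on GRCh37. A further marker of another cell type is not reported here.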

Additional observations from a re-analysis of the deposited data

Results flagged for a closer look

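The effect of BRD9 KO on CBX3, an HP1 gene, differed between periods by a test of the difference, with a late minus early log2 value of -0.0925 (adjusted p = 0.0423, edgeR). It was 0.02 early, from 291 and 312 CPM in LacZ and 315 and 315 CPM in BRD9 KO libraries on day 1 and 365 and 364 CPM in LacZ and 355 and 359.8 CPM in BRD9 KO libraries on day 2, and -0.08 late. The call was lost without any one of 15 of the 16 libraries, without a filter on low counts, with DESeq2, with limma on TPM and against a fold of 1.1.

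The effect on DNMT3B, a de novo DNA methyltransferase, differed between day 5 and day 3 by 0.55 on the log2 scale (adjusted p = 0.0245, edgeR), a comparison chosen after seeing the data. It was -0.27 on day 3 and 0.29 on day 5. The call was lost without any one of 7 of the 8 libraries compared, with limma on TPM, against a fold of 1.1, with a replicate block within days and with the comparison's own libraries.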

How the results depend on the processing

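Without a filter on low counts, 1 gene was called on day 1 and 2 on day 2, and the calls of CBX3 for late minus early and of SUV39H1 early and over time in LacZ were lost (adjusted p = 0.130, 0.0505 and 0.0783). The count of 8 on day 3 became 1 with DESeq2 (DNMT1), 0 with limma on TPM and 0 against a fold of 1.1. That of 4 on day 5 became 2, 3 and 1, and 7 with the length trend removed. The early count of 2 became 1 with limma, 0 against the fold and 1 with the comparison's own libraries. The late count of 10 became 3 with limma and 2 against the fold, and was 8 to 13 otherwise. Of the control's 14 calls over time, limma left 4 and the fold 4. The late minus early count of 1 became 2 with the 1 CPM filter and 0 with DESeq2, limma and the fold. The day 5 minus day 3 count of 1 became 0 with DESeq2, which gave DNMT3B no adjusted p there, and with limma, the fold and the comparison's own libraries. SETDB1's change over time reversed to 0.14 with limma on TPM. Why limma and DESeq2 called fewer was not tested, and a test against a fold asks for more by construction.

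With one library left out the count was 0 on day 1 and 0 to 1 on day 2, 0 to 6 on day 3, 1 to 4 on day 5, 0 to 2 early, 9 to 12 late, 0 to 2 for late minus early, 9 to 14 over time in LacZ and 0 to 1 for day 5 minus day 3. A lone library left in a group is assumed to vary like the others. Leaving out LacZ day 1 replicate 2 gave the 9 over time. Over these fits 141 gene calls were kept and 83 lost, with 0 reversed.

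Replicate numbers were not taken to pair the libraries: deviations of same-numbered BRD9 KO and LacZ libraries had correlations of -0.0123 (day 1), -0.0489 (day 2), -0.0245 (day 3) and -0.0176 (day 5) over all genes, and of -0.0435, -0.118, 0.101 and 0.177 over the 6273 genes with a mean log2 CPM over 5. A replicate block across days called 1 gene on day 2 and 2 for late minus early. A block within days called 1 gene on day 2 and 0 for day 5 minus day 3. No call was lost across days, and those of BCOR on day 3 and DNMT3B from day 3 to day 5 were lost within days.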
